A study of Homo sapiens with 12 samples.

Results

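The genes described here are 35 NF-kB and inflammatory genes, taken from a fixed list of symbols out of the 60648 genes in the deposited count tables. The list holds the 5 NF-kB subunits, 6 inhibitors of the pathway, 5 signalling and survival genes, 4 cytokines, 7 chemokines, 5 surface proteins and 3 effectors. The symbols come from their known place in the pathway, and no threshold on a measured value selects them, though earlier results of these data were known when the list was written. RNA was sequenced from 2 human cell lines of acute myeloid leukemia, MOLM13 and OCIAML5, after lentiviral hairpins had lowered either PSPC1 or PU.1. PSPC1 binds RNA in nuclear bodies called paraspeckles, and PU.1, encoded by SPI1, is a transcription factor of the myeloid lineage. The 12 libraries formed 6 groups of 2. These were MOLM13 with PSPC1 knockdown and MOLM13 with a control hairpin, OCIAML5 with PSPC1 knockdown and its control hairpin, and OCIAML5 with PU.1 knockdown and a separate control hairpin group of that experiment. Per the labels, transduced cells were kept by puromycin or by sorting for a green fluorescent marker, and which was used for which library is not given. OCIAML5 was grown in 20% serum with 10 ng/mL GM-CSF, a myeloid growth factor, and MOLM13 in 10% serum. The number of hairpins per target is not given in the labels.

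NF-kB is a family of dimeric transcription factors built from p50 (NFKB1), p52 (NFKB2), c-Rel (REL), p65 (RELA) and RELB. In resting cells the dimers are held in the cytoplasm by IkB proteins. Receptors of the TNF, interleukin and Toll-like families activate kinases that mark IkB for destruction, and the released dimers switch on cytokines, chemokines, adhesion molecules, survival genes and their own inhibitors. A slower, non-canonical branch acts through NFKB2 and RELB. In monocytes and myeloid blasts the pathway drives much of the inflammatory output of the cell.

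Promoter sequences from RefSeq (GRCh38.p14) covered 29 of the 35 genes in 44 windows. The 250 bases before the start set for each window were searched on both strands. A match to the 10-base kappaB consensus, the sequence that NF-kB dimers bind, was found in 17 of the 44 windows (38.6%), against 3498 of 35116 windows of all genes (9.96%). GAGGAA, the core of the PU.1 site, was found in 8 of the 44 windows (18.2%), against 8277 of 35116 (23.6%). Both motifs share the bases GGAA and may overlap, and 2 of the 44 windows (4.55%) held both. A match is a description of the letters and not a bound site. The 6 runs shown next belong to the genes with the largest changes among those described in full that held a kappaB match. CXCL8, SOD2, TNFRSF1B, NLRP3 and TNFAIP2 held none in any window, though their largest changes exceeded those of NFKBIB and NFKB2. Capitals mark the matches, overlapping ones merged.
CXCL3 (chr4:74038748-74038777, minus strand): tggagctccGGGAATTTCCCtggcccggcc
BIRC3 (chr11:102317234-102317449, plus strand): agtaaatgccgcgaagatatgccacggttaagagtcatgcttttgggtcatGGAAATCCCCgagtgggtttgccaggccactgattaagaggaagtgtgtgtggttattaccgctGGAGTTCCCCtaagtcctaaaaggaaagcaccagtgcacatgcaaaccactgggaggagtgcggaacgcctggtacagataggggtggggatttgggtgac
TNFAIP3 (chr6:137867188-137867217, plus strand): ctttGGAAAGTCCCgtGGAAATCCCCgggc
CD83 (chr6:14117687-14117716, plus strand): ctgcccgccGGGGAATCCCCCgggctggcg
NFKBIB (chr19:38899932-38899961, plus strand): ggcgtggtgGGGAATTTCCCgcagggcgga
NFKB2 (chr10:102394462-102394491, plus strand): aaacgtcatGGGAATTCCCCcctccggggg
The windows of CXCL3, TNFAIP3 and NFKBIB held 2 matches each. That of CD83 held 6, of which 3 lie in the run shown, and that of NFKB2 held 3, of which 2 lie in the run shown. The BIRC3 run holds the PU.1 core as well, in lower case. Starts of these windows differ from the gene starts of the GENCODE positions given below. By those positions the BIRC3 run alone lies before its gene. The runs of CXCL3, TNFAIP3, CD83, NFKBIB and NFKB2 lie inside the gene spans.

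Totals were 15.4 to 22.8 M counts per library for PSPC1 and 26.3 to 39.7 M for PU.1, and 16457 and 16861 genes passed the filter on low counts. Levels are given in CPM, the usual unit of expression relative to sequencing depth, computed from each count and its scaled library size. They allow a gene to be compared between libraries of the same experiment but not with another gene, since they are not divided by length. The PSPC1 and PU.1 experiments were scaled separately, so levels set across them may carry an offset. PSPC1 fell by 2.27 on the log2 scale in MOLM13 and by 2.38 in OCIAML5 after its knockdown. SPI1 fell by 2.20 after PU.1 knockdown, in which PSPC1 fell too, by 0.89. After PSPC1 knockdown SPI1 rose by 0.44 in MOLM13 (edgeR adjusted p = 7.9e-11) and by 0.13 in OCIAML5 (edgeR adjusted p = 0.023). Whether both libraries of a group were grown as separate cultures is not given in the labels. Each p-value therefore measures the spread between the libraries of its fit alone, which may be technical. All groups of the PSPC1 experiment, from both lines, shared an estimate of that spread. Myeloid markers summed to 1400 CPM in both MOLM13 PSPC1-knockdown libraries and 1120 to 1140 CPM in MOLM13 controls, with 8 of 10 above 1 CPM in each group. They summed to 1110 CPM in OCIAML5 with PSPC1 knockdown (7 of 10 above 1 CPM) and 822 to 846 CPM in its controls, and to 551 to 567 CPM with PU.1 knockdown and 816 to 846 CPM in its controls, with 8 of 10 in these 3 groups. Single markers moved in both directions. PTPRC averaged 671 CPM in OCIAML5 with PSPC1 knockdown and 390 CPM in its controls, and 409 CPM in MOLM13 with PSPC1 knockdown and 249 CPM in its controls. CEBPA averaged 127 CPM in MOLM13 with PSPC1 knockdown and 229 CPM in controls, MPO 3.2 CPM there and 36.6 CPM in controls, and CSF2RA 7.75 CPM in OCIAML5 with PSPC1 knockdown and 23.8 CPM in controls. Of the 8 tested myeloid markers 3 rose in each line with PSPC1 knockdown, with 2 lower in MOLM13 and 3 lower in OCIAML5, and with PU.1 knockdown 1 rose and 7 fell. Across the 3 knockdowns 27.5% to 29.6% of all tested genes rose and 28.4% to 30.9% fell. The myeloid list includes SPI1, and its monocyte markers CD14 and CD68 were at or near 0 in all groups. Of the T and NK cell markers, 1 or 2 of 8 were above 1 CPM, and their sum was 65.9 to 68.1 CPM in MOLM13 with PSPC1 knockdown and 96.8 to 97.6 CPM in its controls. It was 24 to 26.1 CPM in OCIAML5 with PSPC1 knockdown and 97.6 to 105 CPM in its controls, and 97.8 to 99.3 CPM with PU.1 knockdown and 84 to 85.5 CPM in its controls. Nearly all of this sum was NCAM1, which averaged 24.7 CPM in OCIAML5 with PSPC1 knockdown and 101 CPM in its controls. B cell markers summed to 1.2 to 24.6 CPM and epithelial markers to at most 2.19 CPM in any library. The part of these markers in the results was not tested.

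Most of the tested members changed in each knockdown, in both directions, as did most of all genes tested. Calls are an adjusted p under 0.05 in edgeR's quasi-likelihood test with Benjamini-Hochberg adjustment over all genes tested. After PSPC1 knockdown in MOLM13, 21 of the 30 tested members were called (11 higher, 10 lower), where 57% of all genes were called (27.6% higher, 29.5% lower). In OCIAML5, 20 of 30 were called after PSPC1 knockdown (11 higher, 9 lower), where 56% of all genes were called (27.5% higher, 28.4% lower). PU.1 knockdown gave 26 of 29 (15 higher, 11 lower), where 60.4% of all genes were called (29.6% higher, 30.9% lower). The median log2 fold change of the tested members was 0.06 in MOLM13, 0.07 in OCIAML5 and 0.20 after PU.1 knockdown, beside 0.006, 0.017 and 0.020 over all genes tested. For every called member both knockdown libraries lay beyond both controls. With a minimum change of 2-fold the called members were 5 in MOLM13, 9 in OCIAML5 with PSPC1 knockdown and 10 with PU.1 knockdown. The matching shares over all genes were not counted for either, so neither sets the members apart from other called genes.

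The second control group sets a limit on the OCIAML5 results. Of 24 members with at least 0.5 CPM in both control groups of that line, 4 stood more than 1.5 times higher in the PU.1-experiment controls (CXCL2, CXCL8, CCL2 and NFKBIE), and 3 stood lower by the same margin (TNFAIP2, RELB and NFKBIZ). CXCL2 was the farthest apart, with a ratio of 6.9. These ratios are of levels scaled within each experiment and may carry an offset between them. Set against the controls of the PSPC1 experiment, PU.1 knockdown raised 8 members and not 15. Of all genes 4622 of 17159 rose there, and 4983 of 16861 with its own controls. Experiment and knockdown cannot be told apart when the other controls are used. The direction or call of some genes turned on the choice of controls.

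**Figure D1:**
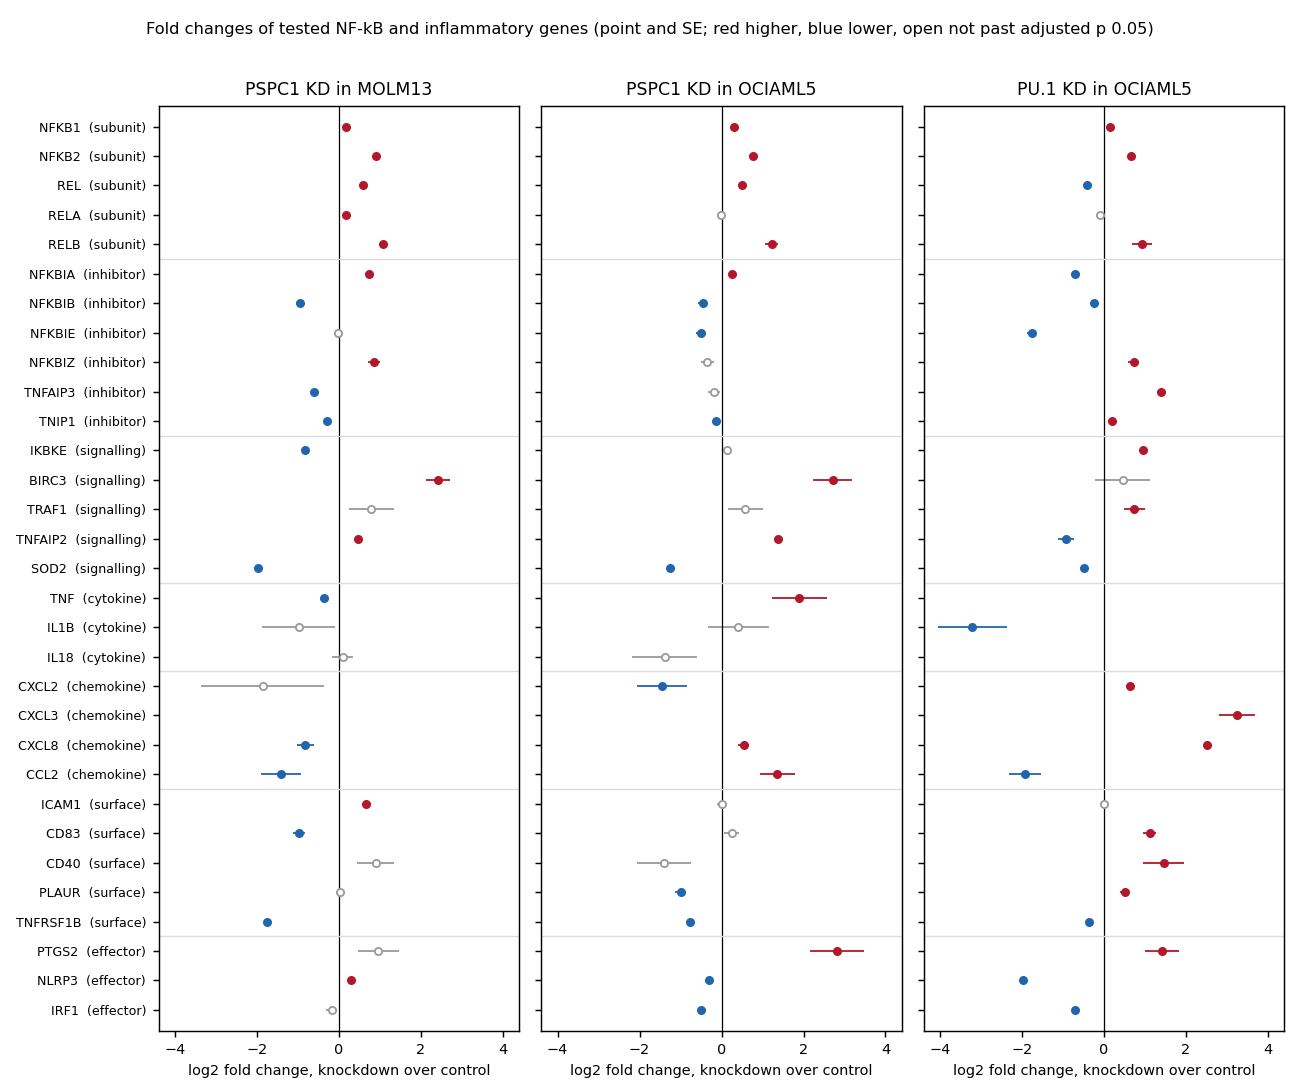
Log2 fold change, knockdown over control, of each tested member in the 3 knockdowns, ordered by role; points are estimates, bars SE, red called higher, blue called lower and open not called at an adjusted p of 0.05. NFKB1, NFKB2 and RELB are red in all 3 panels, NFKBIB, SOD2 and TNFRSF1B blue in all 3, and 9 genes are called on opposite sides of 0 in the MOLM13 PSPC1 and OCIAML5 PU.1 panels. The shares of all genes with such patterns were not counted.

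All 5 subunits were measured at 1.27 CPM or more in each library, and NFKB2 and RELB, the non-canonical pair, moved most. After PSPC1 knockdown 5 of 5 subunits rose in MOLM13 and 4 of 5 in OCIAML5, where 27.6% and 27.5% of all genes rose. After PU.1 knockdown NFKB1, NFKB2 and RELB rose and REL fell, where 29.6% of all genes rose and 30.9% fell. The median log2 fold change of the 5 was 0.58 in MOLM13, 0.50 in OCIAML5 with PSPC1 knockdown and 0.14 with PU.1 knockdown.

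RELB (chromosome 19, 45001430 to 45038198), the subunit that pairs with p52, had 62.6 and 62.9 CPM in MOLM13 with PSPC1 knockdown, against 29.2 and 30.5 CPM in MOLM13 controls. The knockdown libraries were about alike and lay above both controls, a log2 change of 1.07 ± 0.10 (SE; n = 2 libraries each; adjusted p = 2.5e-13). OCIAML5 had 9.23 and 9.22 CPM with PSPC1 knockdown, against 3.42 and 4.55 CPM in controls, a log2 change of 1.22 ± 0.16 (SE; adjusted p = 5.9e-09). With PU.1 knockdown it had 3.59 and 3.88 CPM, against 1.27 and 2.62 CPM in that experiment's controls, a log2 change of 0.92 ± 0.25 (SE; adjusted p = 0.0011). The PU.1 controls differed between themselves by more than the other groups did. Without their replicate 1 the RELB value was 0.49 (adjusted p = 0.10), and against the other OCIAML5 controls it was -0.16 (adjusted p = 0.62).

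NFKB2 (chromosome 10, 102394110 to 102402529), the precursor of p52, whose promoter run is printed above, had 68.5 and 77.8 CPM in MOLM13 with PSPC1 knockdown, against 42.0 and 35.9 CPM in controls (log2 fold change 0.91 ± 0.084 SE; adjusted p = 2.7e-13). In OCIAML5 with PSPC1 knockdown it had 46.2 and 42.6 CPM, against 25.9 and 26.4 CPM in controls (0.77 ± 0.091; adjusted p = 3.7e-10). After PU.1 knockdown it had 31.2 and 30.3 CPM, against 19.8 and 19.3 CPM in controls (0.66 ± 0.084; adjusted p = 2.9e-10). The groups did not overlap in any of the 3. Against the controls of the other experiment the PU.1 value was 0.16 (adjusted p = 0.12).

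NFKB1 (chromosome 4, 102501329 to 102617302), which encodes p50, changed little in size. It had 88.6 and 93.8 CPM in MOLM13 with PSPC1 knockdown against 81.2 and 79.5 CPM in controls (log2 fold change 0.18 ± 0.060 SE; adjusted p = 0.0081), a call lost without knockdown replicate 2 (0.13) or control replicate 2 (0.16). PSPC1-knockdown libraries of OCIAML5 had 126 and 123 CPM against 98.4 and 104 CPM in controls (0.30 ± 0.057; adjusted p = 1.3e-05). PU.1-knockdown libraries had 95.6 and 93.7 CPM against 85.5 and 85.9 CPM in controls (0.14 ± 0.052; adjusted p = 0.015). That last call was lost on leaving out any of the 4 libraries (0.12 to 0.15), and against the other OCIAML5 controls the value was -0.17 (adjusted p = 0.0086).

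REL (chromosome 2, 60881521 to 60931610), which encodes c-Rel, was the subunit whose direction differed between the knockdowns. It had 50.5 and 55.7 CPM in MOLM13 with PSPC1 knockdown against 38.2 and 32.6 CPM in controls (log2 fold change 0.58 ± 0.094 SE; adjusted p = 5.8e-07). It had 40.9 and 36.1 CPM in OCIAML5 with PSPC1 knockdown against 29.6 and 24.8 CPM in controls (0.50 ± 0.098; adjusted p = 2.1e-05). With PU.1 knockdown it fell, to 13.2 and 16.8 CPM against 19.6 and 20.6 CPM in controls (-0.41 ± 0.10; adjusted p = 0.00032), a call lost without knockdown replicate 1 (-0.27, adjusted p = 0.054). RELA (chromosome 11, 65653596 to 65663094), which encodes p65, had 95.3 and 88.0 CPM in MOLM13 with PSPC1 knockdown against 83.1 and 79.8 CPM in controls (0.17 ± 0.063; adjusted p = 0.02). That call was lost without knockdown replicate 1 (0.10) or control replicate 2 (0.13), and without a filter on low counts (0.15, adjusted p = 0.079). RELA was not called in OCIAML5, with 80.8 and 82.2 CPM after PSPC1 knockdown against 81.5 and 83.3 CPM in controls, and 86.8 and 82.7 CPM after PU.1 knockdown against 94.5 and 87.9 CPM in controls. Without control replicate 2 the PU.1 value, -0.11, became -0.17 (adjusted p = 0.0075).

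**Figure D2:**
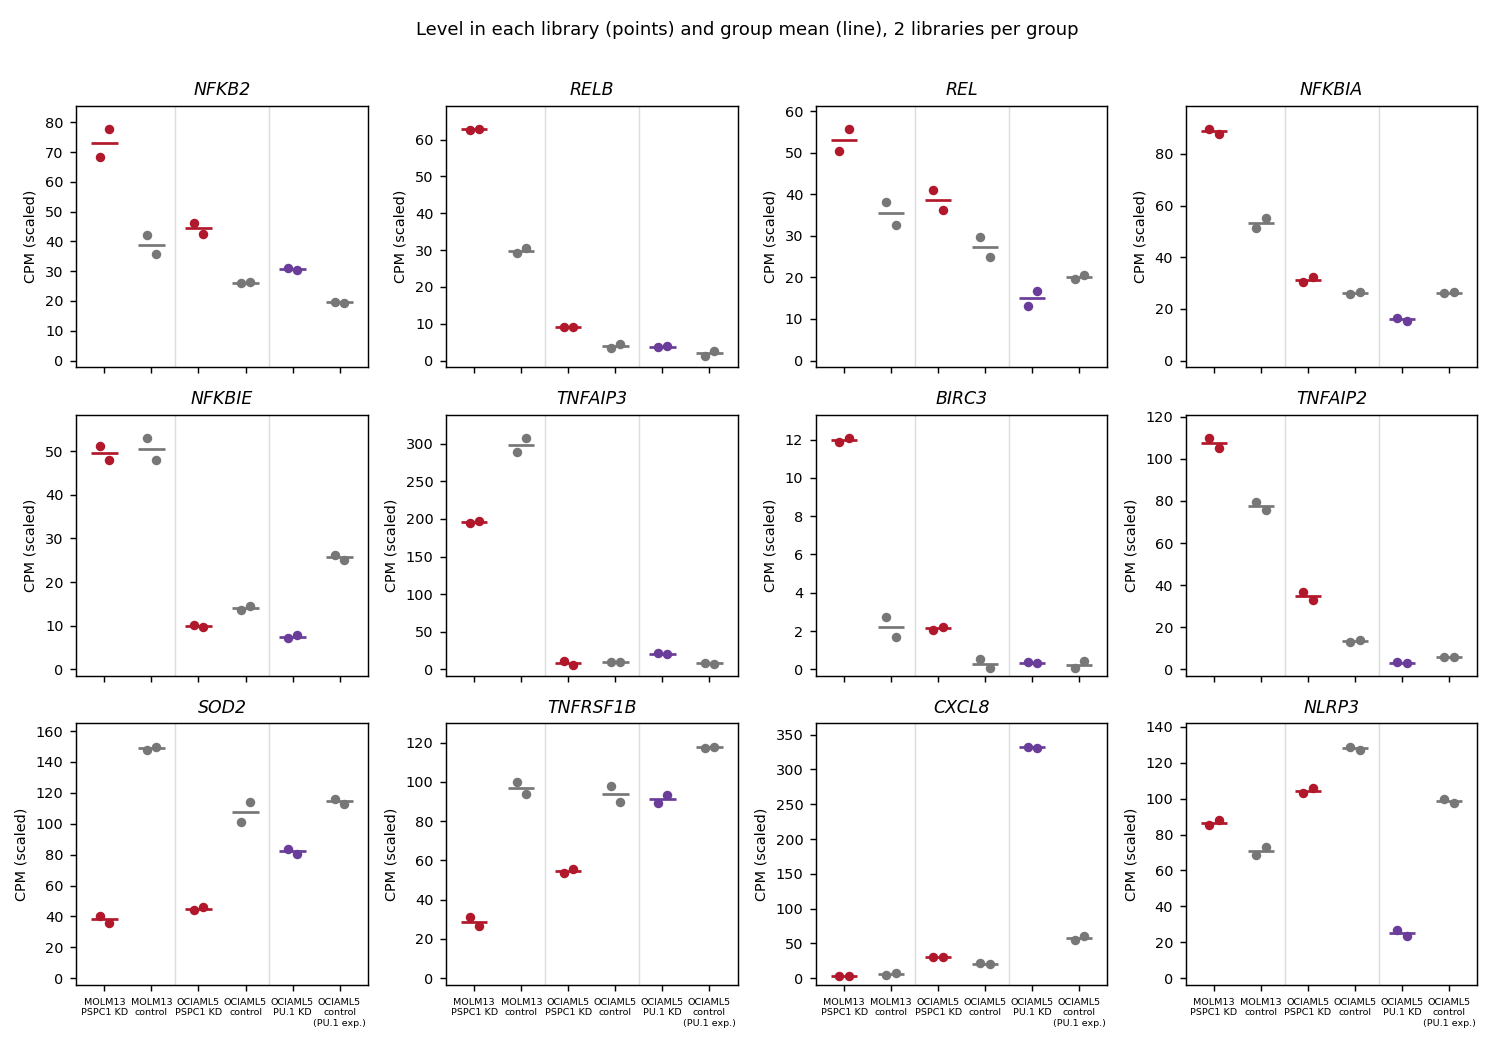
CPM of 12 members in each of the 12 libraries; points are libraries, lines group means, red PSPC1 knockdown, purple PU.1 knockdown and grey controls, each knockdown left of its own control. The CXCL8 panel shows 333 and 331 CPM after PU.1 knockdown, the TNFAIP3 panel shows MOLM13 at 195 CPM or more and every OCIAML5 library at or under 21.4 CPM, and the BIRC3 panel shows both PSPC1-knockdown groups above their controls.

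The inhibitors did not move as a block. In MOLM13 with PSPC1 knockdown 2 of 6 rose and 3 fell, in OCIAML5 with PSPC1 knockdown 1 rose and 3 fell, and with PU.1 knockdown 3 rose and 3 fell. Of all genes, 27.5% to 29.6% rose and 28.4% to 30.9% fell across the 3 knockdowns. NFKBIB fell in all 3 knockdowns, while NFKBIA and TNFAIP3 each went in different directions. The 6 include NFKBIZ, an IkB protein that turns on some targets, which rose in MOLM13 and with PU.1 knockdown.

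NFKBIA (chromosome 14, 35401511 to 35404749) encodes IkB-alpha, the main cytoplasmic inhibitor and itself an NF-kB target. It had 89.7 and 87.9 CPM in MOLM13 with PSPC1 knockdown, against 51.3 and 55.3 CPM in controls, a log2 change of 0.74 ± 0.075 (SE; adjusted p = 3.2e-12). In PSPC1-depleted OCIAML5 it had 30.4 and 32.2 CPM, against 25.7 and 26.4 CPM in controls, a log2 change of 0.26 ± 0.087 (SE; adjusted p = 0.0085). That call was lost without knockdown replicate 2 (0.22, adjusted p = 0.085) or control replicate 1 (0.24, adjusted p = 0.066). With PU.1 knockdown NFKBIA fell to 16.5 and 15.4 CPM, against 26.0 and 26.5 CPM in controls, a log2 change of -0.72 ± 0.091 (SE; adjusted p = 1.7e-10).

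NFKBIB (chromosome 19, 38899700 to 38908893), which encodes IkB-beta, had 23.9 and 22.6 CPM in MOLM13 with PSPC1 knockdown against 47.0 and 42.5 CPM in controls (log2 fold change -0.95 ± 0.10 SE; adjusted p = 2.6e-11). With PSPC1 lowered in OCIAML5 it had 16.0 and 16.7 CPM against 22.5 and 22.3 CPM in controls (-0.46 ± 0.11; adjusted p = 0.00043), and with PU.1 knockdown 26.5 and 24.4 CPM against 31.2 and 29.4 CPM in controls (-0.25 ± 0.081; adjusted p = 0.0057). The PU.1 call was lost without knockdown replicate 2 (-0.20), with scaling by library size alone (-0.10), and with the other controls, where the value was 0.11. NFKBIB overlaps SIRT2 on the opposite strand, and whether counting used the strand is not stated, so reads of such pairs may not be told apart. The same holds for RELA, TNFAIP3, IKBKE, SOD2, IL18, CCL3, ICAM1 and IRF1, which overlap annotated genes on the other strand.

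NFKBIE (chromosome 6, 44258166 to 44265788), which encodes IkB-epsilon, had 51.3 and 48.1 CPM in MOLM13 with PSPC1 knockdown and 53.1 and 47.9 CPM in controls, which overlapped (adjusted p = 0.84). In OCIAML5 with PSPC1 knockdown it had 10.1 and 9.78 CPM against 13.6 and 14.5 CPM in controls (log2 fold change -0.50 ± 0.12 SE; adjusted p = 0.00046). OCIAML5 with PU.1 knockdown had 7.11 and 7.95 CPM against 26.2 and 25.1 CPM in controls (-1.76 ± 0.11; adjusted p = 8.1e-24). Its 2 OCIAML5 control groups averaged 25.7 and 14.1 CPM in the PU.1 and PSPC1 experiments.

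TNFAIP3 (chromosome 6, 137867188 to 137883312) encodes A20, an enzyme that edits ubiquitin chains and switches the pathway off. It had 195 and 197 CPM in MOLM13 with PSPC1 knockdown, against 289 and 308 CPM in controls, a log2 change of -0.61 ± 0.062 (SE; adjusted p = 3.7e-12). In OCIAML5 with PSPC1 knockdown the libraries stood apart, at 10.6 and 6.06 CPM, and straddled the controls at 9.78 and 9.74 CPM (-0.18 ± 0.14; adjusted p = 0.27). Without knockdown replicate 1 the value was -0.69 (adjusted p = 9.1e-05), without knockdown replicate 2 it was 0.11, and with the other controls it was 0.16 (adjusted p = 0.4). With PU.1 knockdown it had 21.4 and 20.2 CPM, against 8.42 and 7.47 CPM in controls, a log2 change of 1.39 ± 0.11 (SE; adjusted p = 5.2e-18).

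NFKBIZ (chromosome 3, 101827991 to 101861022) encodes a nuclear IkB protein that turns on a subset of NF-kB targets. It had 20.6 and 18.7 CPM in MOLM13 with PSPC1 knockdown against 9.86 and 11.9 CPM in controls (log2 fold change 0.86 ± 0.15 SE; adjusted p = 4.2e-06), and 10.5 and 12.1 CPM with PU.1 knockdown against 7.13 and 6.68 CPM in controls (0.72 ± 0.13; adjusted p = 3.5e-06). It was not called in OCIAML5 with PSPC1 knockdown, at 11.1 and 8.89 CPM against 11.7 and 14.0 CPM in controls (-0.35, adjusted p = 0.06). There it passed without knockdown replicate 1 (-0.53) or control replicate 1 (-0.48). Both OCIAML5 values turned with the other controls, to 0.60 (adjusted p = 0.00055) for PSPC1 and -0.25 (adjusted p = 0.15) for PU.1. TNIP1, an A20-binding partner, changed by small amounts. It had 110 and 102 CPM in MOLM13 with PSPC1 knockdown against 130 and 131 CPM in controls (-0.30, adjusted p = 1.5e-05), and 101 and 98.7 CPM with PU.1 knockdown against 89.5 and 84.3 CPM in controls (0.20, adjusted p = 0.00072). Against the other controls the PU.1 value was 0.12 (adjusted p = 0.079). Its fall in OCIAML5 with PSPC1 knockdown (-0.14, adjusted p = 0.039) was lost without knockdown replicate 1 (-0.14, adjusted p = 0.13), knockdown replicate 2 (-0.15) or control replicate 2 (-0.12), with DESeq2 (-0.14, adjusted p = 0.085) and without the filter on low counts (-0.15, adjusted p = 0.068). It shrank to -0.06 (adjusted p = 0.4) with library size alone and to -0.08 (adjusted p = 0.23) with the other controls.

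Among the signalling and survival genes, SOD2 fell in all 3 knockdowns and BIRC3 rose after PSPC1 knockdown in both lines. SOD2 (chromosome 6, 159669057 to 159745186) encodes the mitochondrial superoxide dismutase, an NF-kB target that protects from TNF-induced death. It had 40.5 and 35.6 CPM in MOLM13 with PSPC1 knockdown, against 148 and 150 CPM in controls, a log2 change of -1.97 ± 0.070 (SE; adjusted p = 4.4e-29). OCIAML5 had 43.9 and 46.1 CPM with PSPC1 knockdown, against 101 and 114 CPM in controls (-1.26 ± 0.068; adjusted p = 1e-21), and 83.8 and 80.7 CPM with PU.1 knockdown, against 116 and 113 CPM in controls (-0.48 ± 0.052; adjusted p = 9.9e-13). The symbol stands for 2 gene IDs in the GENCODE annotation, and SOD2 overlaps WTAP on the other strand.

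BIRC3 (chromosome 11, 102317450 to 102339403) encodes cIAP2, a ubiquitin ligase of the TNF receptor complex that blocks cell death. It had 11.9 and 12.1 CPM in MOLM13 with PSPC1 knockdown, against 2.74 and 1.67 CPM in controls, a log2 change of 2.42 ± 0.29 (SE; adjusted p = 3.1e-10). OCIAML5 had 2.05 and 2.22 CPM with PSPC1 knockdown, against 0.544 and 0.0632 CPM in controls, a log2 change of 2.71 ± 0.48 (SE; adjusted p = 3e-06). The OCIAML5 controls held few counts, and without their replicate 1 the value was 4.92. After PU.1 knockdown it had 0.399 and 0.307 CPM, between the controls at 0.0633 and 0.424 CPM (adjusted p = 0.58).

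TNFAIP2 (chromosome 14, 103123442 to 103137439), a TNF-inducible gene of membrane nanotubes, had 110 and 105 CPM in MOLM13 with PSPC1 knockdown against 79.3 and 75.8 CPM in controls (log2 fold change 0.47 ± 0.069 SE; adjusted p = 8.9e-08). PSPC1-knockdown libraries of OCIAML5 had 36.7 and 33.0 CPM against 13.1 and 13.8 CPM in controls (1.38 ± 0.094; adjusted p = 5.7e-18). With PU.1 knockdown it fell to 3.3 and 2.79 CPM against 5.86 and 5.70 CPM in controls (-0.93 ± 0.19; adjusted p = 2.1e-05). IKBKE (chromosome 1, 206470476 to 206496889), an IKK-related kinase, went the other way. It had 28.5 and 28.2 CPM in MOLM13 with PSPC1 knockdown against 49.2 and 50.8 CPM in controls (-0.82 ± 0.095; adjusted p = 1.9e-10), and 48.3 and 47.3 CPM with PU.1 knockdown against 23.7 and 26.0 CPM in controls (0.94 ± 0.074; adjusted p = 2e-18). It was not called in OCIAML5 with PSPC1 knockdown (22.3 and 22.8 CPM against 19.8 and 21.2 CPM in controls; 0.14, adjusted p = 0.25), and with the other controls the value was -0.09 (adjusted p = 0.42). TRAF1, an adaptor of TNF receptors, passed with PU.1 knockdown alone, at 2.61 and 3.18 CPM against 1.87 and 1.62 CPM in controls (0.74 ± 0.26; adjusted p = 0.013). That call was lost without knockdown replicate 2 (0.58), without control replicate 2 (0.62), with DESeq2 (0.74, adjusted p = 0.061) and with the other controls (0.74, adjusted p = 0.05).

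Of the cytokines, TNF was well covered in MOLM13 and near or at 0 in OCIAML5. TNF (chromosome 6, 31575567 to 31578336) had 73.2 and 69.3 CPM in MOLM13 with PSPC1 knockdown, against 91.5 and 91.2 CPM in controls, a log2 change of -0.36 ± 0.078 (SE; adjusted p = 9.6e-05). In PSPC1-depleted OCIAML5 it had 0.334 and 0.611 CPM against 0.109 and 0.126 CPM in controls (1.90 ± 0.67; adjusted p = 0.014). Those controls held 4 counts in all, and the call was lost without knockdown replicate 2 (1.46) or either control (1.78 and 1.99). TNF had no counts in the 4 libraries of the PU.1 experiment.

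IL1B, a fever cytokine released through the inflammasome, stood at 0.815 CPM or less in all libraries and was not called after PSPC1 knockdown. PU.1-knockdown libraries had 0.0725 and 0.0279 CPM against 0.475 and 0.477 CPM in controls. That was 3 counts against 33, a ratio of 0.0994 (exact 95% interval of the counts 0.0195 to 0.317; edgeR adjusted p = 0.00067), and the call was lost without knockdown replicate 2 (adjusted p = 0.058). IL18, another inflammasome cytokine, had 7.71 and 6.68 CPM in MOLM13 with PSPC1 knockdown and 6.07 and 7.47 CPM in controls, which overlapped, and 0.443 CPM or less in OCIAML5. EBI3, a subunit of interleukins, was at 0.82 CPM or less in MOLM13, had no counts in OCIAML5 and was not tested.

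Of the chemokines, the neutrophil attractants CXCL8, CXCL3 and CXCL2 rose after PU.1 knockdown and the monocyte attractant CCL2 fell. CXCL8 (chromosome 4, 73740506 to 73743716), interleukin-8, had 333 and 331 CPM with PU.1 knockdown, against 55.5 and 60.6 CPM in controls. Both knockdown libraries lay at more than 5 times either control, a log2 change of 2.51 ± 0.048 (SE; adjusted p = 6.2e-52). In MOLM13 with PSPC1 knockdown it had 2.50 and 3.81 CPM against 4.70 and 6.75 CPM in controls (-0.82 ± 0.21; adjusted p = 0.00088). With PSPC1 lowered in OCIAML5 it had 30.4 and 30.1 CPM against 21.1 and 20.4 CPM in controls (0.54 ± 0.13; adjusted p = 0.00056). That rise depends on the controls used, since against those of the PU.1 experiment the value was -0.89 (adjusted p = 1.2e-16).

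CXCL3 (chromosome 4, 74036589 to 74038807) had 2.18 and 2.26 CPM with PU.1 knockdown, against 0.222 and 0.239 CPM in controls, a log2 change of 3.25 ± 0.44 (SE; adjusted p = 1.7e-09). It had no counts in the 4 MOLM13 libraries and did not pass the filter for PSPC1, where OCIAML5 had 0.125 and 0.111 CPM with knockdown and 0.272 and 0.506 CPM in controls. CXCL2 had 16.3 and 19.3 CPM with PU.1 knockdown, against 11.7 and 11.3 CPM in controls (0.64 ± 0.11; adjusted p = 5.1e-07). In OCIAML5 with PSPC1 knockdown it had 0.501 and 0.722 CPM against 1.63 and 1.71 CPM in controls (-1.45 ± 0.61; adjusted p = 0.04), a call lost on leaving out any of the 4 libraries (-1.73 to -1.20), with DESeq2 (adjusted p = 0.11), without the filter on low counts (adjusted p = 0.065) and with library size alone (adjusted p = 0.052). CXCL2 and CXCL3 are close copies of each other and of CXCL1, so reads shared between them could have been split or dropped in the counting.

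CCL2 (chromosome 17, 34255218 to 34257203) had 0.659 and 0.586 CPM in MOLM13 with PSPC1 knockdown against 1.64 and 1.67 CPM in controls (log2 fold change -1.41 ± 0.49 SE; adjusted p = 0.013), a call lost without knockdown replicate 2 (-1.33, adjusted p = 0.075). PSPC1-knockdown libraries of OCIAML5 had 3.47 and 2.33 CPM against 1.36 and 0.885 CPM in controls (1.36 ± 0.42; adjusted p = 0.0052). That call was lost without knockdown replicate 1 (1.04), without control replicate 2 (1.09) and with the other controls (0.55, adjusted p = 0.16). OCIAML5 with PU.1 knockdown had 0.326 and 0.725 CPM against 1.77 and 2.36 CPM in controls (-1.93 ± 0.39; adjusted p = 1.4e-05). CCL3, CCL4 and CCL22 were not tested in any comparison. CCL4, a macrophage inflammatory protein with near-identical copies in the genome, had 0.471 and 0.195 CPM with PU.1 knockdown and no counts in the controls of that experiment. Its 20 counts stood at 7.29 times the level that 3 counts over that control group would give. CCL3 stood at 0.274 CPM or less, and CCL22 had no counts in any of the 12 libraries.

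Among the surface proteins TNFRSF1B fell in all 3 knockdowns. TNFRSF1B (chromosome 1, 12167003 to 12209228) encodes TNF receptor 2, a receptor that signals survival. It had 31.2 and 26.5 CPM in MOLM13 with PSPC1 knockdown, against 100 and 93.9 CPM in controls, a log2 change of -1.75 ± 0.078 (SE; adjusted p = 3.2e-25). OCIAML5 had 53.8 and 55.8 CPM with PSPC1 knockdown against 97.9 and 89.7 CPM in controls (-0.78 ± 0.071; adjusted p = 1.3e-13), and 89.1 and 93.4 CPM with PU.1 knockdown against 117 and 118 CPM in controls (-0.37 ± 0.051; adjusted p = 3e-09). With the other controls the PU.1 value was -0.11 (adjusted p = 0.098).

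CD83 (chromosome 6, 14117256 to 14136918), a marker of activated antigen-presenting cells, had 12.7 and 11.4 CPM in MOLM13 with PSPC1 knockdown against 24.8 and 22.5 CPM in controls (log2 fold change -0.98 ± 0.15 SE; adjusted p = 1.5e-07). With PU.1 knockdown it had 9.39 and 10.7 CPM against 4.69 and 4.64 CPM in controls (1.11 ± 0.15; adjusted p = 1.8e-09). In OCIAML5 with PSPC1 knockdown it was not called, at 7.23 and 6.5 CPM against 6.09 and 5.50 CPM in controls (0.25, adjusted p = 0.25), but with the other controls the value was 0.62 (adjusted p = 0.002). PLAUR (chromosome 19, 43646095 to 43670547), the urokinase receptor, had 5.01 and 4.83 CPM in OCIAML5 with PSPC1 knockdown against 10.1 and 9.74 CPM in controls (-1 ± 0.14; adjusted p = 2.1e-08), and 18.8 and 16.8 CPM with PU.1 knockdown against 13.3 and 11.8 CPM in controls (0.50 ± 0.11; adjusted p = 3.3e-05). PLAUR overlapped between groups in MOLM13 (85.0 and 78.9 CPM against 83.4 and 76.6 CPM in controls).

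ICAM1 (chromosome 19, 10270835 to 10286615), an adhesion molecule, had 28.5 and 29.6 CPM in MOLM13 with PSPC1 knockdown against 17.7 and 19.2 CPM in controls (log2 fold change 0.66 ± 0.11 SE; adjusted p = 2e-06). It was not called in OCIAML5 with either knockdown, at 23.7 and 27.5 CPM against 26.8 and 24.2 CPM in controls for PSPC1, and 21.0 and 20.6 CPM against 21.2 and 20.5 CPM in controls for PU.1. With the controls exchanged those values were 0.35 (adjusted p = 0.002) and -0.37 (adjusted p = 0.0017). CD40, a costimulatory TNF receptor, had 1.16 and 1.03 CPM with PU.1 knockdown against 0.253 and 0.530 CPM in controls (1.45 ± 0.49; adjusted p = 0.0088). That call was lost without knockdown replicate 1 (1.36), without control replicate 1 (1.02) and with the other controls (0.53, adjusted p = 0.46). After PSPC1 knockdown CD40 had 3.10 and 3.34 CPM against 2.01 and 1.43 CPM in controls in MOLM13, and 0.125 and 0.445 CPM against 0.978 and 0.443 CPM in controls in OCIAML5, neither of them called. With the 4 MOLM13 libraries alone the MOLM13 value of 0.89 passed (adjusted p = 0.027), and the OCIAML5 value of -1.41 passed without knockdown replicate 2 (-2.47) or control replicate 2 (-1.86).

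NLRP3 (chromosome 1, 247416156 to 247449108), the sensor of the best-known inflammasome, fell most among the effectors. It had 26.6 and 23.6 CPM with PU.1 knockdown, against 100 and 97.7 CPM in controls, a log2 change of -1.98 ± 0.065 (SE; adjusted p = 2.2e-38). In MOLM13 with PSPC1 knockdown it had 85.1 and 88.2 CPM against 68.7 and 73.0 CPM in controls (0.29 ± 0.061; adjusted p = 5.2e-05). In PSPC1-depleted OCIAML5 it had 103 and 106 CPM against 129 and 127 CPM in controls (-0.30 ± 0.057; adjusted p = 1.2e-05), and 0.13 (adjusted p = 0.04) with the other controls.

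IRF1 (chromosome 5, 132481609 to 132490798), an interferon-response transcription factor, had 32.7 and 31.9 CPM with PU.1 knockdown against 53.0 and 53.1 CPM in controls (log2 fold change -0.72 ± 0.068 SE; adjusted p = 1.1e-14), and 25.4 and 26.6 CPM in OCIAML5 with PSPC1 knockdown against 38.5 and 34.0 CPM in controls (-0.49 ± 0.12; adjusted p = 0.00067). In MOLM13 with PSPC1 knockdown its libraries stood apart, at 17.6 and 10.7 CPM, and straddled the controls at 15.1 and 16.8 CPM. The MOLM13 value of -0.18 was -0.58 (adjusted p = 0.002) without knockdown replicate 1 and 0.13 without knockdown replicate 2. PTGS2, cyclooxygenase 2, had 1.67 and 1.28 CPM in OCIAML5 with PSPC1 knockdown against 0.217 and 0.190 CPM in controls (2.82 ± 0.66; adjusted p = 0.00027), and 1.60 and 1.37 CPM with PU.1 knockdown against 0.538 and 0.557 CPM in controls (1.42 ± 0.42; adjusted p = 0.0025). In MOLM13 it had 2.24 and 2.05 CPM with PSPC1 knockdown against 1.60 and 0.538 CPM in controls (0.96, adjusted p = 0.095) and passed without control replicate 1 (1.97). In bulk RNA, fewer cells that make a transcript and less of it per cell cannot be told apart.

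The response to PSPC1 knockdown differed between the lines for 17 of the 30 members tested, 7 more positive and 10 more negative in MOLM13. Of all genes 30.5% differed, 12.5% more positive and 18% more negative in MOLM13. Serum and GM-CSF differed with the line, so a difference in response cannot be told apart from one of culture. None of the 5 subunits differed, but the intervals of those differences show how far they could: RELB -0.15 (95% interval -0.53 to 0.23), NFKB2 0.14 (-0.11 to 0.38), REL 0.08 (-0.19 to 0.35), NFKB1 -0.12 (-0.28 to 0.05) and RELA 0.18 (0.01 to 0.36, not past the adjusted threshold). BIRC3 was not called either, with -0.29 and a wide interval of -1.42 to 0.84.

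Opposite calls in the lines were made for 4 members, and the share of all genes called in opposite directions was not counted. CCL2 was called down in MOLM13 and up in OCIAML5, a difference of -2.77 ± 0.65 (SE; MOLM13 minus OCIAML5; adjusted p = 0.00068), although each line's own call was lost without single libraries. CXCL8 was likewise down in MOLM13 and up in OCIAML5 (-1.37 ± 0.25; adjusted p = 2.2e-05), and NLRP3 up in MOLM13 and down in OCIAML5 (0.59 ± 0.084; adjusted p = 1.2e-07). With the other OCIAML5 controls the OCIAML5 values of both turned, to -0.89 for CXCL8 and 0.13 for NLRP3. TNF was the fourth with opposite calls (-2.26 ± 0.67; adjusted p = 0.0071), which was lost without OCIAML5 knockdown replicate 2 (-1.82) or control replicate 1 (-2.15). The smallest adjusted p belonged to TNFRSF1B, which fell in both lines and by more in MOLM13 (-0.98 ± 0.11; adjusted p = 1.5e-10). SOD2 fell in both and by more in MOLM13 (-0.71; adjusted p = 9.1e-08), and TNFAIP2 rose in both and by more in OCIAML5 (-0.91; adjusted p = 1.5e-08). The TNFAIP3 difference of -0.43 (adjusted p = 0.027) was 0.08 when OCIAML5 knockdown replicate 1 was left out, -0.39 (adjusted p = 0.052) without MOLM13 control replicate 2, and -0.36 (adjusted p = 0.54) by DESeq2. Differences of NFKBIE (0.48), NFKBIB (-0.49) and CD40 (2.30) also lost their call without single libraries. NFKBIE was 0.43 without MOLM13 knockdown replicate 1, 0.40 without MOLM13 control replicate 2 and 0.43 without OCIAML5 control replicate 2. NFKBIB was -0.42 without MOLM13 control replicate 1. CD40 was 2.24 and 2.08 without replicate 2 of the MOLM13 knockdown and control, and 1.58 and 1.60 without replicate 1 of the OCIAML5 knockdown and control.

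**Figure D3:**
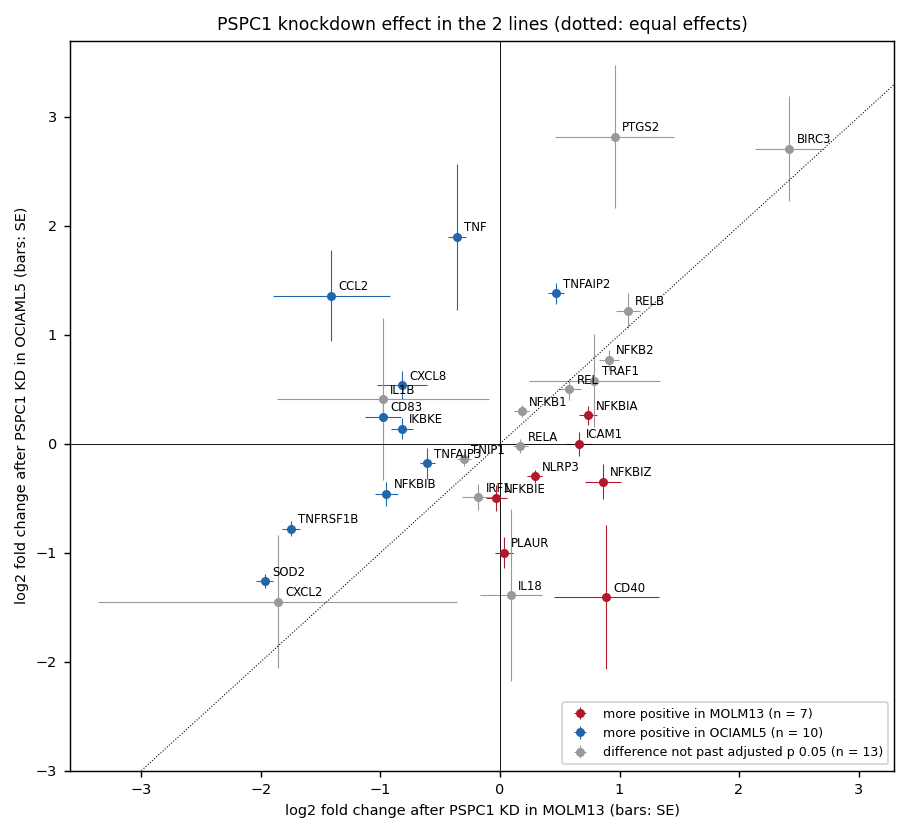
Log2 fold change after PSPC1 knockdown in MOLM13 (x axis) and OCIAML5 (y axis) for the 30 tested members, with SE bars and a dotted line of equal effects; red genes are more positive in MOLM13 (7), blue more positive in OCIAML5 (10), grey without a called difference (13). RELB, NFKB2, REL and BIRC3 lie near the dotted line on the side where both lines rose, while CCL2, CXCL8 and TNF lie where MOLM13 fell and OCIAML5 rose.

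PU.1 and PSPC1 knockdown in OCIAML5, each set against the controls of its own experiment, differed for 19 of 29 members, 12 more positive and 7 more negative with PU.1 knockdown. Of all genes 45.6% differed, 22.8% more positive and 22.9% more negative. The differences largest in size were CXCL3 (4.90 ± 0.98 SE, PU.1 minus PSPC1; adjusted p = 4.6e-05), IL1B (-3.59 ± 1.2; adjusted p = 0.011), CCL2 (-3.28 ± 0.57; adjusted p = 4.3e-06) and CD40 (2.87 ± 0.92; adjusted p = 0.0087). CXCL3 had not passed the filter on low counts for PSPC1, where it had 5 counts with knockdown and 13 in controls, and it entered this test through its PU.1-knockdown libraries. IL1B and CD40 were low in counts too, and each call was lost on leaving out either of 2 libraries. IL1B was -2.84 without PSPC1-experiment control replicate 2 and -3 without PU.1 knockdown replicate 2. CD40 was 2.16 without PSPC1 knockdown replicate 1 and 2.19 without PSPC1-experiment control replicate 1. TNFAIP2 (-2.30 ± 0.20; adjusted p = 1.7e-13), REL (-0.90 ± 0.15; adjusted p = 1.9e-06) and NFKBIA (-0.97 ± 0.13; adjusted p = 3.6e-08) rose with PSPC1 knockdown and fell with PU.1 knockdown. PLAUR went the other way (1.53 ± 0.20; adjusted p = 1.4e-08). NLRP3 fell in both and by more with PU.1 knockdown (-1.67 ± 0.086; adjusted p = 2.9e-21), and CXCL8 rose in both and by more with PU.1 knockdown (1.99 ± 0.097; adjusted p = 5e-22). These shared directions hold with each experiment's own controls. Against the PU.1-experiment controls the PSPC1 value turned to 0.13 for NLRP3 and to -0.89 for CXCL8. NFKB1, NFKB2, RELA and RELB did not pass, with RELB at -0.28 and an interval of -0.95 to 0.39.

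The lines also differed in their controls. In MOLM13 controls 18 of 30 members were higher and 7 lower than in OCIAML5 controls of the same experiment, where 60.6% of all genes were called (30% higher, 30.7% lower). The median log2 difference was 0.58 for the members and -0.006 for all genes tested. TNFAIP3 stood at 289 and 308 CPM in MOLM13 controls against 9.78 and 9.74 CPM in OCIAML5 controls (log2 difference 4.93 ± 0.090 SE; adjusted p = 9.9e-42). PLAUR stood at 83.4 and 76.6 CPM against 10.1 and 9.74 CPM (3.02 ± 0.098), RELB at 29.2 and 30.5 CPM against 3.42 and 4.55 CPM (2.91 ± 0.14), and IL18 at 6.07 and 7.47 CPM against 0.217 and 0.443 CPM (4.36 ± 0.40). On the lower side CXCL8 stood at 4.70 and 6.75 CPM in MOLM13 controls against 21.1 and 20.4 CPM in OCIAML5 controls (-1.88 ± 0.16; adjusted p = 1.6e-14). IRF1 (-1.19) and NLRP3 (-0.86) were lower in MOLM13 as well. The lines were grown in different serum and with or without GM-CSF, which cannot be told apart from the line itself.

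**Figure D4:**
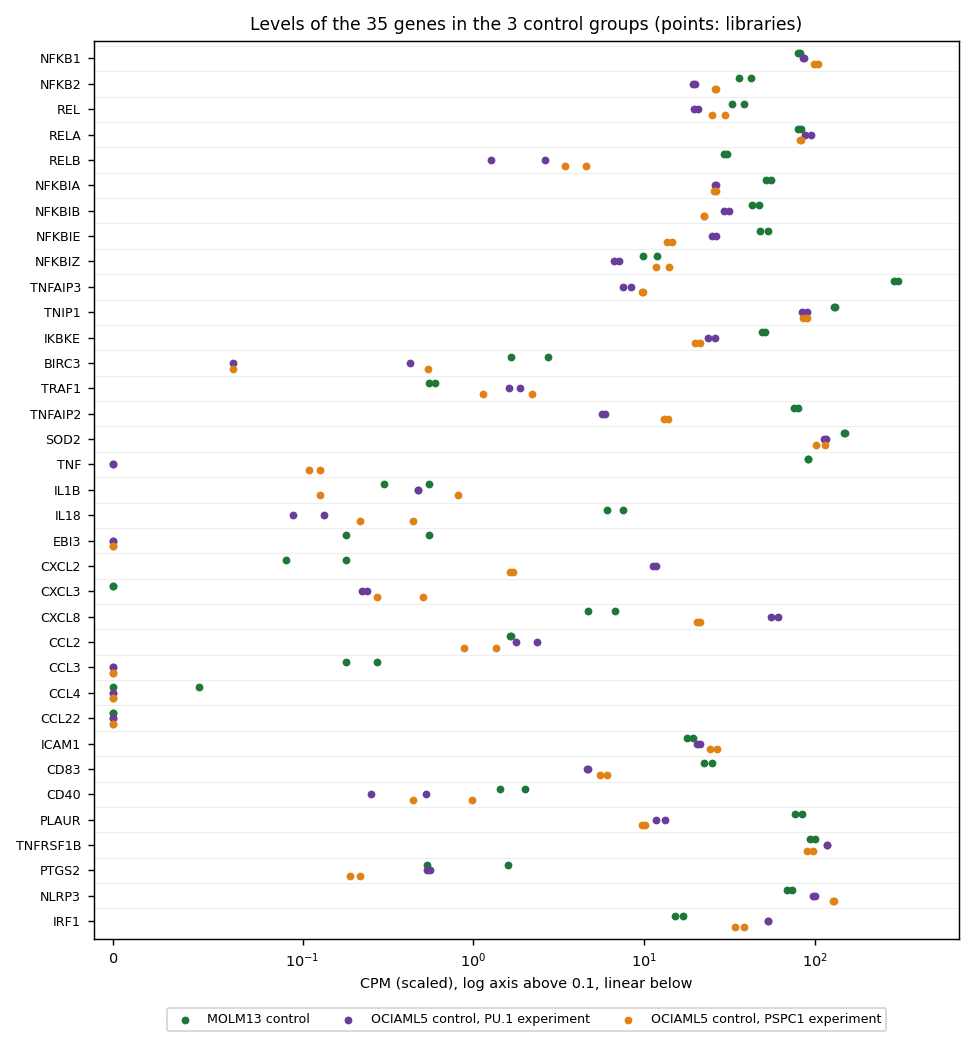
CPM of the 35 genes in the libraries of the 3 control groups, on an axis that is logarithmic above 0.1 CPM and linear below; green is MOLM13, purple the PU.1-experiment controls of OCIAML5 and orange its PSPC1-experiment controls. TNF, TNFAIP3, IL18 and RELB stand to the right in MOLM13, and CXCL2 and CXCL8 differ between the 2 OCIAML5 control groups.

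The 4 lists of other genes of the pathway moved in both directions as well. Their counts are to be read against the 57% of all genes called in MOLM13 and the 56% in OCIAML5 with PSPC1 knockdown and the 60.4% with PU.1 knockdown, split about evenly by direction. Of 24 upstream receptors, adaptors and kinases, 8 rose and 9 fell in MOLM13 and 10 rose and 7 fell in OCIAML5 with PSPC1 knockdown, and 7 of 23 rose and 10 fell with PU.1 knockdown. TNFRSF1A, TNF receptor 1, had 65.8 and 71.7 CPM in MOLM13 with PSPC1 knockdown against 141 and 140 CPM in controls (log2 fold change -1.03 ± 0.064 SE; adjusted p = 1.7e-19). MAP3K14, the kinase NIK of the non-canonical branch, had 1.85 and 1.82 CPM in MOLM13 with PSPC1 knockdown against 5.62 and 5.14 CPM in controls (-1.56 ± 0.26; adjusted p = 1.1e-06), and 3.23 and 3.63 CPM with PU.1 knockdown against 6.87 and 8.30 CPM in controls (-1.14 ± 0.17; adjusted p = 3.3e-08). XIAP, an inhibitor of apoptosis, had 97.9 and 96.3 CPM in OCIAML5 with PSPC1 knockdown against 42.4 and 42.7 CPM in controls (1.19 ± 0.070; adjusted p = 2e-20), and rose with PU.1 knockdown too (0.66; adjusted p = 1.5e-12).

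Of 16 other negative regulators, 8 rose and 5 fell in MOLM13 and 7 rose and 4 fell in OCIAML5 with PSPC1 knockdown, and 6 of 15 rose and 3 fell with PU.1 knockdown. BCL3, a nuclear IkB protein that partners p50 and p52, rose in all 3, with log2 fold changes of 1.02 ± 0.11 in MOLM13, 1.1 ± 0.18 in OCIAML5 and 0.74 ± 0.16 with PU.1 knockdown (SE; adjusted p at most 6e-05). It had 60.4 and 57.0 CPM in MOLM13 with PSPC1 knockdown against 29.6 and 28.2 CPM in controls. CYLD, a deubiquitinase that dampens the pathway, had 103 and 117 CPM in MOLM13 with PSPC1 knockdown against 66.9 and 64.8 CPM in controls (0.74 ± 0.070; adjusted p = 4.9e-13). SOCS3, a cytokine-signalling inhibitor, fell by 2.30 on the log2 scale in MOLM13 and by 1.70 in OCIAML5 with PSPC1 knockdown.

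Of the inflammasome and interleukin-1 genes, 4 of 10 rose and 3 fell in each line with PSPC1 knockdown, and 3 of 9 rose and 4 fell with PU.1 knockdown. IL1RN, the secreted antagonist of interleukin-1, fell in all 3. It had 11.2 and 9.72 CPM in OCIAML5 with PSPC1 knockdown against 46.5 CPM in both controls (log2 fold change -2.14 ± 0.13 SE; adjusted p = 1.9e-19). It had 7 and 7.23 CPM with PU.1 knockdown against 28.7 and 30.4 CPM in controls (-2.05 ± 0.10; adjusted p = 6.9e-28), and the MOLM13 value was -1.16. PYCARD, the adaptor ASC that joins NLRP3 to caspase-1, fell with PU.1 knockdown to 4.35 and 4.60 CPM against 19.4 and 17.0 CPM in controls (-2.02 ± 0.13; adjusted p = 1.4e-22), as NLRP3 did. Other members of the list rose with PU.1 knockdown. NLRP1, another inflammasome sensor, had 2.94 and 2.68 CPM against 0.285 and 0.0265 CPM in controls (4.23 ± 0.47; adjusted p = 3.7e-12). CASP1, which encodes caspase-1, had 25.6 and 28.4 CPM against 16.7 and 15.6 CPM in controls (0.75 ± 0.091; adjusted p = 5.9e-11).

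Of the further kappaB targets, 5 of 20 rose and 9 fell in MOLM13 and 5 rose and 7 fell in OCIAML5 with PSPC1 knockdown, and 9 of 17 rose and 2 fell with PU.1 knockdown. CXCL1, next of kin to CXCL3, had 27.2 and 27.4 CPM with PU.1 knockdown against 10.7 and 8.85 CPM in controls (log2 fold change 1.49 ± 0.10 SE; adjusted p = 2.7e-21). CXCL10, an interferon-inducible chemokine, had 1.58 and 2.17 CPM in MOLM13 with PSPC1 knockdown against 12.6 and 9.74 CPM in controls (-2.56 ± 0.31; adjusted p = 4.7e-10). IER3, an immediate early survival gene, had 3.3 and 3.63 CPM with PU.1 knockdown against 0.507 and 0.504 CPM in controls (2.77 ± 0.33; adjusted p = 2.8e-11). PLAU, urokinase, the ligand of PLAUR, had 6.35 and 8.4 CPM with PU.1 knockdown against 27.0 and 27.9 CPM in controls (-1.88 ± 0.11; adjusted p = 7.4e-25), while its receptor rose.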

How the data were processed

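The authors deposited raw read counts per gene as 2 tables, 1 with 8 libraries for PSPC1 and 1 with 4 for PU.1, and no other unit was used. Per the labels' protocols, libraries were made from total RNA with a stranded mRNA kit. The submitters' processing notes name Trim Galore 0.6.7, STAR 2.7.10a, HTSeq 2.0.2, DESeq2 1.36.0 and GRCh38 without roles, and neither the annotation release nor the strand setting is stated. The tests used edgeR 4.0.16 in R 4.3.3 (filterByExpr, TMM, quasi-likelihood F test, Benjamini-Hochberg over all genes tested, threshold 0.05). Each table had its own fit, and all 8 libraries of OCIAML5 shared a joined fit that set PU.1 with PSPC1 knockdown. The SE is the size of the log2 fold change over the square root of F. Replicates of a group varied 2.61 to 4.96 times as much as counting alone, so none was counted as a duplicate. Depth was 15.4 to 39.7 M counts, and 1 count was worth 0.0265 to 0.0659 CPM. Genes described in full passed in a knockdown with both libraries beyond both controls and at least 2 CPM in the higher group, up to 12 per knockdown by size, with the subunits, NFKBIA, NFKBIB, NFKBIE and TNFAIP3 added; other members are given beside them. The gene list, the other lists and the tests were chosen with earlier results of these data known. The method was tested on simulated data. Alternatives were DESeq2 1.42.0, other scalings, filters and thresholds, a replicate block, 1 line alone, the other OCIAML5 controls and leaving out each library. Positions are from GENCODE on GRCh38 and promoters from RefSeq. Protein levels were not analysed here.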

Additional observations from a re-analysis of the deposited data

Results flagged for a closer look

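Every member whose knockdown effect differed between lines or between targets, by a test of the difference itself in edgeR (adjusted p under 0.05 over all genes tested), is listed here with its log2 difference. Between the lines (PSPC1 knockdown, MOLM13 minus OCIAML5), the effect was more positive in MOLM13 for CD40 (2.30), NFKBIZ (1.20), PLAUR (1.04), ICAM1 (0.66), NLRP3 (0.59), NFKBIA (0.48) and NFKBIE (0.48). It was more negative in MOLM13 for CCL2 (-2.77), TNF (-2.26), CXCL8 (-1.37), CD83 (-1.22), TNFRSF1B (-0.98), IKBKE (-0.96), TNFAIP2 (-0.91), SOD2 (-0.71), NFKBIB (-0.49) and TNFAIP3 (-0.43). Line and culture medium cannot be told apart here.

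In OCIAML5 (PU.1 minus PSPC1 knockdown), the effect was more positive with PU.1 knockdown for CXCL3 (4.90, on few counts in the PSPC1 experiment), CD40 (2.87), CXCL2 (2.12), CXCL8 (1.99), TNFAIP3 (1.60), PLAUR (1.53), NFKBIZ (1.08), CD83 (0.88), IKBKE (0.82), SOD2 (0.80), TNFRSF1B (0.43) and TNIP1 (0.36). It was more negative for IL1B (-3.59), CCL2 (-3.28), TNFAIP2 (-2.30), NLRP3 (-1.67), NFKBIE (-1.24), NFKBIA (-0.97) and REL (-0.90).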

How the results depend on the processing

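Counts of called members stayed within 1.5 times of those reported under DESeq2, RLE size factors, library size alone, other low-count filters and an adjusted p of 0.01. A 2-fold minimum left 5 (2 higher, 3 lower) for PSPC1 in MOLM13, 9 (6 and 3) for PSPC1 in OCIAML5, 10 (6 and 4) for PU.1, 7 (3 and 4) for the line difference, 12 (7 and 5) for PU.1 minus PSPC1 and 17 (13 and 4) between control lines. With the controls of the other experiment PU.1 knockdown had 8 higher, where 4622 of 17159 genes were higher. Fits that left out 1 library held a single library in 1 group, so their counts of called members are not given.

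Signs turned with the other OCIAML5 controls, with a call before or after, for CXCL8 (-0.89), NFKBIZ (0.60), ICAM1 (0.35) and NLRP3 (0.13) after PSPC1 knockdown, and for NFKB1 (-0.17), RELB (-0.16), NFKBIB (0.11), NFKBIZ (-0.25) and ICAM1 (-0.37) after PU.1 knockdown. TNFAIP3 (0.16) and IKBKE (-0.09), uncalled either way, turned after PSPC1 knockdown. The TNFAIP3 line difference turned (0.08) without OCIAML5 PSPC1-knockdown replicate 1, and leaving out single libraries gave -0.73 to 0.08. The cause was not tested. A tally was made over all tested members in the 3 knockdowns. In the other comparisons it took the called members alone, so no call could be gained there. It left out the adjusted p of 0.01 and the 2-fold minimum. Of its values, 1628 kept direction and side of the threshold, 72 lost a call and 10 gained one. Another 10 turned with a call before or after, and 31 uncalled values changed sign or reached 0.

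With library size as the sole scaling, the all-gene median moved by 0.151 after PU.1 knockdown, with 6583 genes higher and 3995 lower, against 4983 and 5206. Same-numbered libraries did not deviate together over the tested genes (correlations -0.011 to 0.016). Whether they share more than a number is not given in the labels. With the replicate block the called members were 21, 19 and 26 in the 3 knockdowns and 17, 19 and 25 in the other comparisons. Of all genes, 9240 and 9060 of 16457 were then called for PSPC1 in MOLM13 and OCIAML5, and 9941 of 16861 for PU.1. In the other comparisons 4925 of 16457, 7721 of 17159 and 9817 of 16457 were called. CXCL2 in OCIAML5 lost its call (-1.46, adjusted p = 0.055). Genes under about 1 CPM rest on few counts, and 2 libraries per group limit every SE.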
